A study of Mus musculus with 2 samples.

Results

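The insulin-like growth factor (IGF) family was followed in the mouse cochlea as 9 genes: the ligands Igf1 and Igf2, the receptor Igf1r, and the binding proteins Igfbp2, Igfbp3, Igfbp4, Igfbp5, Igfbp6 and Igfbp7. The genes were chosen by symbol, and all 9 were found among the 32285 genes listed for both libraries. The mice were C57BL/6J, 4 to 6 weeks old, and the tissue was labelled sensory epithelium. Cells were captured with 10x Genomics 3′ chemistry in 2 libraries, 1 per group, with n = 5 stated for each group. Every ear had received noise at 105 dB in an octave band of 8 to 16 kHz for 2 h, and tissue was taken 2 days later. For the drug-and-noise library, cochleae received a drug (90 mg/ml) and were then exposed. The noise-only library held the other, untreated ear of these animals. The series title shortens the drug to VPA. Its route, and whether any of it reached the untreated ears, are not known here. No library from ears without noise was analysed here. With 1 library per group there is no replicate, so every difference below is between these libraries, no test was possible, and intervals cover counting error only.

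IGF1 and IGF2 are secreted peptides that act through the receptor tyrosine kinase IGF1R, which signals through insulin receptor substrates to PI3 kinase and Akt. Binding proteins hold the ligands in the blood and in the extracellular matrix, and proteases such as PAPP-A release the ligands by cutting some of them. IGFBP7 binds IGFs with low affinity and is rich in the basement membrane of vessels. In the ear, loss of IGF1 is known to cause sensorineural hearing loss in mice and in people.

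Gene positions are those of GENCODE M21 on GRCm38. Igf1 spans chromosome 10, 87858265 to 87937042 (plus strand), Igf2 chromosome 7, 142650766 to 142666816 (minus), and Igf1r chromosome 7, 67952827 to 68233668 (plus). Igfbp3 spans chromosome 11, 7206086 to 7213923 (minus), and Igfbp4 chromosome 11, 99041244 to 99054392 (plus). Igfbp6 spans chromosome 15, 102144362 to 102149511 (plus), and Igfbp7 chromosome 5, 77349240 to 77408041 (minus). Igfbp2 (chromosome 1, 72824503 to 72852474, plus strand) and Igfbp5 (chromosome 1, 72857932 to 72874884, minus strand) face each other tail to tail, 5457 bases apart, with no annotated gene between them there. The 250 bases upstream of a listed start of each are shown because these neighbours had ratios on opposite sides of 1 in some classes described below. They are from RefSeq (GRCm38.p6), written 5′ to 3′ on the strand of the gene, and capitals mark the GC box letters GGGCGG on either strand.
Igfbp2 (chr1:72824230-72824479, plus strand): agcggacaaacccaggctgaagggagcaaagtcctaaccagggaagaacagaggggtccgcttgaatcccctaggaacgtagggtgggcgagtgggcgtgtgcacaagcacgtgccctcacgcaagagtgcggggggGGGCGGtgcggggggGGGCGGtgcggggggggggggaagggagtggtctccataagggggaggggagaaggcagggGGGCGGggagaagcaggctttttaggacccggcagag
Igfbp5 (chr1:72874866-72875115, minus strand): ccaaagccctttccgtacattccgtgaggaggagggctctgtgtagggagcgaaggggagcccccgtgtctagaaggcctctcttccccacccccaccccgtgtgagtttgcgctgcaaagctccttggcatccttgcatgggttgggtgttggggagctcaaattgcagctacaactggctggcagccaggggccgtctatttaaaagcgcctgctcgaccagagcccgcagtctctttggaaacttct
The Igfbp2 stretch held 3 GC boxes and a GC content of 67.2%, and the Igfbp5 stretch held none and 58.8%. Neither contained the exact TATA box letters TATAAA on either strand, and variants of these letters were not searched for. The listed start of Igfbp5 lies 19 bases inside the GENCODE span given above, so its stretch overlaps that span. Of 32851 upstream stretches of the same length, 32.7% held GGGCGG and 12.4% held TATAAA. These matches describe letters and not sites of binding.

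After filtering, 16466 noise-only and 18985 drug-and-noise cells were kept, with 33332414 and 34294961 UMIs (unique molecular identifiers, each standing for 1 captured RNA molecule). Median UMIs per cell were 1121 and 1174, and median mitochondrial shares were 4.87% and 6.61%. The libraries shared 111 barcode sequences, and these were kept as distinct cells. Cells fell into 39 clusters, and named classes, each written with "-like", rest on markers that exclude the family. Comparisons were limited to classes that reached 100 cells on both sides: 19 named classes and 5 clusters that stayed unnamed. Although the label is sensory epithelium, hair cell-like cells numbered 105 and 170, and the largest class was Schwann or satellite glia-like with 6748 and 4034 cells. Levels are given as CPM, the UMIs of a gene scaled to a common total of UMIs of the class. In this 3′ method a transcript gives 1 molecule whatever its length.

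RNA outside cells gives some UMIs of every abundant gene to every class, so a background was read from cells not known to make these proteins. In the erythroid-like, neutrophil-like and B lineage-like classes the highest level in either library was 22.2 CPM for Igf1, 33.9 for Igf2, 121 for Igf1r, 97.9 for Igfbp2, 20.6 for Igfbp3, 129 for Igfbp4, 232 for Igfbp5, 183 for Igfbp6 and 606 for Igfbp7. Igf1r is made widely, so its value there is not taken as free RNA alone. The rule that follows was still applied to Igf1r, and 1 named class passed it. For this gene, a class that did not pass may still express it. A pair of a gene and a named class is called above background where the mean of its levels in both libraries was over 2 times that highest level. There were 33 such pairs, 9 of them for Igfbp5 and 6 for Igf1, and 14 further pairs lay in unnamed clusters. Some named pairs passed through their higher library alone. Under the limit of 2 times the highest level were the noise-only levels of Igf1 in mesothelial or meningeal cell-like and Igfbp4 in pericyte-like cells. So were the drug-and-noise levels of Igfbp3 in endothelial cell-like and Igfbp5 in pericyte-like cells. The ratios of these pairs are not independent of the rule. The heat map of levels by class and library shows that most of the family was high in few classes, while Igf1r was more even.

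**Figure D1:**
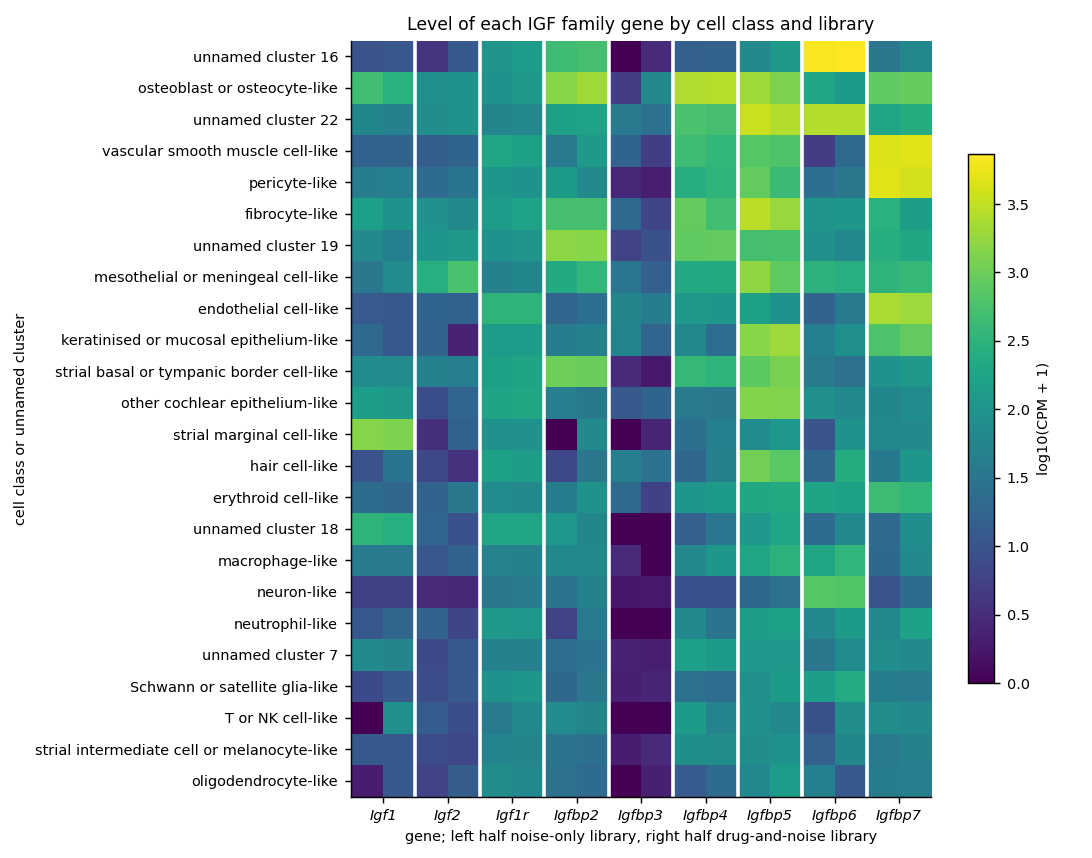
Level of each of the 9 genes (columns) in the 24 compared classes and unnamed clusters (rows), as log10(CPM + 1), with the noise-only library on the left and the drug-and-noise library on the right of each column. Rows are sorted by their summed level. Igf1 is brightest in strial marginal cell-like cells, Igfbp6 in unnamed cluster 16, and Igfbp7 in the vessel wall classes.

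Between libraries, a ratio (drug-and-noise CPM over noise-only CPM) of at most 0.8 was called lower, and of at least the reciprocal of 0.8 higher. Of the 33 pairs above background, 7 were higher and 10 lower in the drug-and-noise library. Over all genes and named classes held to the same rule, 15.3% of pairs were higher and 21.7% lower, and the family's counts, out of so few pairs, are read only gene by gene. Across all 146 pairs with at least 20 UMIs in the libraries together, 51 were higher and 29 lower, against 19.4% and 20.3% of all genes' pairs. At a minimum of 100 UMIs the counts were 28 and 16 of 90, against 9.79% and 12.3%. That balance depended on how doublets (droplets with more than 1 cell) were removed. With doublets kept it was 67 and 27 of 157 pairs. With the score threshold that the doublet caller sets for each library it was 32 and 43 of 139. Shares over all genes are not given here for the alternatives, so the turn is not read as particular to this family. No overall direction is therefore read from the 146 pairs. The same changes left the 33 pairs above background at 8 higher and 8 lower, and at 8 higher and 10 lower. Other choices moved them more: weighting clusters by their noise-only shares gave 7 higher and 6 lower with 1 ratio turned, and the mean of single-cell levels gave 5 and 7. With 1000 genes or more per cell, 24 of the pairs had a value, 4 higher and 9 lower. The balance of the 33 pairs is therefore not read as a direction either. The doublet threshold used here and the rule for background were both chosen after values of these genes had been seen. The plot of ratios above background shows which calls held under each alternative that gave a value: 7 of 17 did. Of these 7, the calls in mesothelial or meningeal cell-like and pericyte-like cells had no value at 1000 genes or more per cell, and Igf1 in the former had none at a minimum of 100 UMIs either. Igf1 in the former and Igfbp5 in the latter also passed the background rule only through the library where they were higher.

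**Figure D2:**
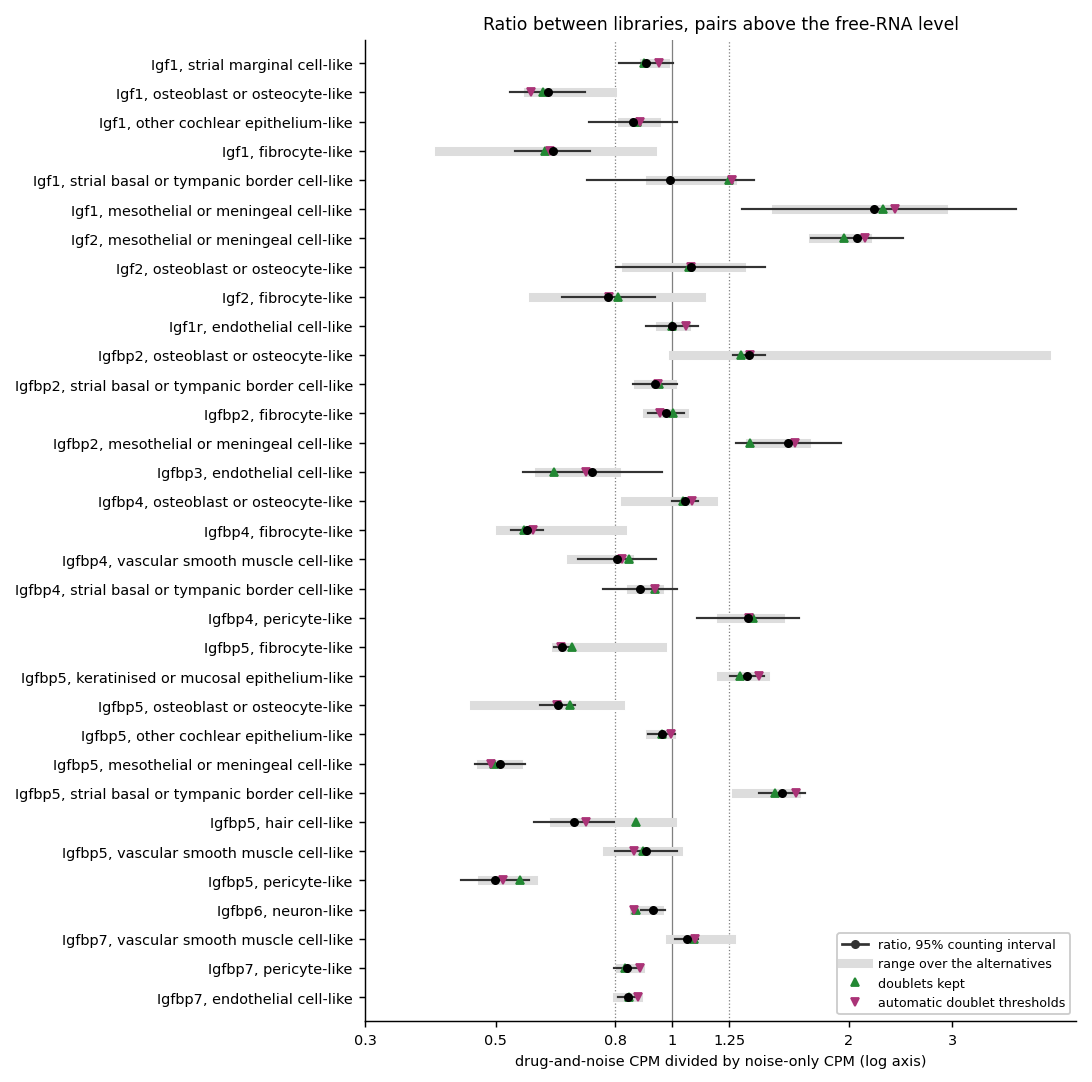
Ratio of drug-and-noise to noise-only CPM on a log axis for the 33 pairs above background, with the 95% counting interval as a thin line and the range over the alternatives as a grey band. Triangles give the ratio with doublets kept (up) and with automatic doublet thresholds (down), and dotted lines mark the call limits. The mesothelial or meningeal cell-like class stands at 2.06 for Igf2 and 0.509 for Igfbp5.

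Igf1 was by far highest in the strial marginal cell-like class, the cells of the stria vascularis that secrete potassium into endolymph. Its level there was 1458 CPM in the noise-only library (620 UMIs, 95% Poisson interval 1345 to 1577) and 1316 in the drug-and-noise library (811 UMIs, 1227 to 1410.3). Both libraries exceeded the levels of every other class, and the ratio of 0.903 (0.812 to 1.004) was between the calls. A UMI of Igf1 was seen in 72.0% and 69.9% of these cells when each cell was thinned to 1000 UMIs, and in 80.7% and 75.8% before thinning. This class held 1.01% and 1.48% of the cells but 21.6% and 32.2% of all Igf1 UMIs.

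The osteoblast or osteocyte-like class came next for Igf1, at 476 CPM in the noise-only and 292 in the drug-and-noise library. The ratio was 0.615 (0.530 to 0.711), and it stayed at or under 0.790 in every alternative. Unnamed cluster 18, led by Vmo1 and Crhbp, followed at 328 and 268 CPM, with a ratio of 0.818 (0.695 to 0.961). Levels in the osteoblast or osteocyte-like class and in cluster 18 overlapped between libraries, so their order is not fixed. The other cochlear epithelium-like class held 145 and 124 CPM (ratio 0.859, 0.722 to 1.02). In the strial basal or tympanic border cell-like class Igf1 was 72.6 and 72.1 CPM, a ratio of 0.993 (0.715 to 1.38). The mesothelial or meningeal cell-like class was low, at 33.1 and 73.0 CPM from 20 and 61 UMIs, and its ratio was 2.21 (1.31 to 3.86). Its noise-only level was under the background limit of 44.5. Igf1 was also seen at 68.7 and 57.3 CPM in unnamed cluster 7, which carries macrophage markers. Over all cells Igf1 stood at 86.0 and 73.5 CPM, a ratio of 0.855 (0.810 to 0.902).

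Igf2, an imprinted fetal growth factor that persists in the meninges and choroid plexus of adults, was highest among compared classes in the mesothelial or meningeal cell-like class. It was 278 CPM in the noise-only library (168 UMIs, 238 to 323) and 573 in the drug-and-noise library (479 UMIs, 523 to 627). The ratio of 2.06 (1.73 to 2.47) was the largest of the family in a pair above background with at least 100 UMIs, and it ranged from 1.74 to 2.14 over the 16 alternatives that gave a value. At 1000 UMIs per cell, 17.6% and 35.0% of the cells had an Igf2 UMI. Of all genes tested in that class, 27.0% were higher and 18.6% lower by the same rule. The osteoblast or osteocyte-like class held Igf2 at 84.9 and 91.6 CPM (ratio 1.08, 0.803 to 1.44), unnamed cluster 19 at 105 and 122, and unnamed cluster 22 at 78.9 and 95.5. None of these 3 differed beyond counting error.

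The choroid plexus epithelium-like class was too small to compare, with 67 and 95 cells, yet it bears on the sums for Igf2 and Igfbp2. In the noise-only library it held Igf2 at 677 CPM and Igfbp2 at 2519.7 CPM, and in the drug-and-noise library at 47.0 and 445 CPM. Ttr, the thyroid hormone carrier that defines this epithelium, made up 249970.0 CPM there in the noise-only and 33912 CPM in the drug-and-noise library, and the cluster also held genes of ciliated cells. Thus 27.4% of noise-only Igf2 UMIs but 0.835% of drug-and-noise Igf2 UMIs came from this class, while the mesothelial or meningeal cell-like class gave 13.1% and 36.3%. Over all cells Igf2 was 38.5 and 38.4 CPM, a ratio of 0.998 (0.924 to 1.08), so equal sums came from different cells. Igf2 overlaps the antisense gene Igf2os on chromosome 7, which had 6 and 7 UMIs in all cells.

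Igf1r was spread more evenly than any other of the 9 genes: its highest class stood 3.2 times above the median of the 24 units, against 13.3 times or more for the others. Endothelial cell-like cells led with 324 CPM in each library (661 and 841 UMIs), a ratio of 0.999 (0.902 to 1.11), and both values lay above every other class. The other cochlear epithelium-like class held 178 and 203 CPM and unnamed cluster 18 held 184 and 186, and these neighbours overlapped. Neuron-like cells were among the lowest at 33.7 and 39.5 CPM. In the fibrocyte-like class, cells of the spiral ligament that recycle potassium, Igf1r was 131 and 175 CPM, a ratio of 1.34 (1.17 to 1.53), with 16.9% of all genes higher in that class. That ratio was 1.54 (1.2 to 1.98) in its cluster 2, 1.18 (0.934 to 1.49) in cluster 9 and 1.08 (0.842 to 1.38) in cluster 28. Over all cells Igf1r was 108 and 123 CPM, a ratio of 1.14 (1.09 to 1.2), and weighting every cluster by its noise-only share gave 1.09.

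Igfbp2, which binds both ligands, was highest in the osteoblast or osteocyte-like class and in unnamed cluster 19, led by Ccl11, Aard and Osr2. The osteoblast or osteocyte-like class held 1507 CPM in the noise-only and 2037 in the drug-and-noise library (ratio 1.35, 1.27 to 1.44). The mean of single-cell levels gave a ratio of 1.0015, and a finer clustering that moved part of the class to a fibroblast-like class gave 4.34, so the size of that difference is not settled. Cluster 19 held 1540.1 and 1520.5 CPM, a ratio of 0.987 (0.906 to 1.08), with a UMI in 73.7% and 78.6% of cells at 1000 UMIs. The strial basal or tympanic border cell-like class held 1014 and 949 CPM (ratio 0.936, 0.858 to 1.02), and the fibrocyte-like class 534 and 521 (ratio 0.976, 0.910 to 1.05). In the mesothelial or meningeal cell-like class Igfbp2 was 230.0 and 363 CPM, a ratio of 1.58 (1.29 to 1.94) that stayed at 1.36 or more in the 16 of 17 alternatives that gave a value. Over all cells Igfbp2 was 258 and 233 CPM (ratio 0.902), with 15.2% and 1.30% of its UMIs in the choroid plexus epithelium-like class. Weighting every cluster by its noise-only share gave a ratio of 1.01.

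Igfbp3, the main carrier of IGFs in serum, was the rarest of the 9, at 10.7 and 9.62 CPM over all cells. Only the endothelial cell-like class passed the background rule, with 56.4 and 41.2 CPM (115 and 107 UMIs) and a ratio of 0.731 (0.556 to 0.959). Its drug-and-noise level alone was just under the limit of 41.3. The ratio was 0.531 (0.382 to 0.739) in endothelial cluster 4 and 0.716 (0.427 to 1.19) in cluster 12. At 1000 UMIs a UMI was seen in 3.72% and 2.79% of endothelial cell-like cells. Hair cell-like cells (44.0 and 28.5 CPM) and keratinised or mucosal epithelium-like cells (55.3 and 17.0 CPM) overlapped with them, so the order is not fixed. In the osteoblast or osteocyte-like class 6 and 55 UMIs were counted, and 1 cell held 38.2% of the latter.

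Igfbp4, a binding protein cut by PAPP-A, was led by the osteoblast or osteocyte-like class with 2558 CPM in the noise-only and 2690.5 in the drug-and-noise library (ratio 1.05, 0.999 to 1.11). Both libraries were above every other class, and the class held 41.6% and 30.5% of all Igfbp4 UMIs. Under the finer clustering, the fibroblast-like class that appeared was the highest for Igfbp4 instead. In the clustering used here, unnamed cluster 19 followed with 829.8 and 857 CPM (ratio 1.03) and unnamed cluster 22 stood at 561 and 539 (ratio 0.961). The fibrocyte-like class held 848 and 480.4 CPM, a ratio of 0.566 (0.532 to 0.603), so its place against those clusters differed between libraries. In vascular smooth muscle cell-like cells the levels were 456 and 367 CPM (ratio 0.806, 0.691 to 0.939), and in strial basal or tympanic border cell-like cells 376 and 331 (ratio 0.880, 0.761 to 1.02). Pericyte-like cells, which wrap capillaries, held 251 and 337 CPM, a ratio of 1.34 (1.1 to 1.65), which ranged from 1.21 to 1.53 over the 16 alternatives that gave a value. Their noise-only level was under the background limit of 257.5. Over all cells Igfbp4 was 278 and 219 CPM, a ratio of 0.787 (0.764 to 0.812). Weighting every cluster by its noise-only share gave 0.960. It was the only 1 of the 9 called over all cells, where 12.0% of all genes were higher and 9.43% lower.

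Igfbp5, which binds matrix and is found in bone and ligament, was above background in more classes than any other of the 9. Among the compared classes and unnamed clusters, unnamed cluster 22, led by Prg4, Slc47a1 and Penk, held the highest mean level. It was 3581 CPM in the noise-only and 2625 in the drug-and-noise library (ratio 0.733, 0.693 to 0.775). The fibrocyte-like class held 2865 and 1862 CPM, a ratio of 0.650 (0.629 to 0.672), and 33.3% and 31.0% of all Igfbp5 UMIs. Taken singly, its clusters 2 (3619 and 3329 CPM) and 28 (3370.4 and 3611 CPM) had mean levels above that of cluster 22. Keratinised or mucosal epithelium-like cells held 1501 and 2015 CPM (1.26 to 1.43 around a ratio of 1.34). Over the alternatives that ratio ranged from 1.21 to 1.44, short of a call at its lowest. The osteoblast or osteocyte-like class held 2039 and 1302 CPM (ratio 0.639, 0.596 to 0.684), and the mean of single-cell levels gave 0.815, which ends that call. The other cochlear epithelium-like class, whose larger cluster is led by Ceacam16 and Epyc, held 1426 and 1369.8 CPM, a ratio of 0.960 (0.911 to 1.01). Levels of these classes overlapped between libraries, so their order is not fixed.

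The differences in Igfbp5 went both ways. In the mesothelial or meningeal cell-like class it was 1662 and 846 CPM, a ratio of 0.509 (0.462 to 0.561), where Igfbp2 and Igf2 were higher. In pericyte-like cells it was 872 and 435 CPM, the latter under the background limit of 463.5, a ratio of 0.499 (0.436 to 0.570). In the strial basal or tympanic border cell-like class, by contrast, it was 769 and 1183 CPM, a ratio of 1.54 (1.41 to 1.68). The name of this class rests on 4 of its 7 markers, the minimum for a name. These 3 calls held in each alternative that gave a value (16 of 17 for the mesothelial or meningeal cell-like and pericyte-like cells), with ranges of 0.472 to 0.547, 0.474 to 0.579 and 1.28 to 1.62. At 1000 UMIs the share of cells with a UMI went from 48.5% to 32.2% in mesothelial or meningeal cell-like cells, from 39.8% to 26.8% in pericyte-like cells and from 37.9% to 48.4% in strial basal or tympanic border cell-like cells. In hair cell-like cells Igfbp5 was 1097 and 745 CPM (374 and 288 UMIs, ratio 0.679, 0.581 to 0.794), with 12.8% and 18.8% of the UMIs in 1 cell, and the mean of single-cell levels gave 0.999. Vascular smooth muscle cell-like cells held 692 and 625 CPM (ratio 0.903, 0.8 to 1.02).

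Endothelial cell-like cells were under the background rule for Igfbp5, with 159.9 and 93.6 CPM. Their ratio of 0.586 (0.494 to 0.693) went to 1.17 with doublets kept and to 1.24 at a finer clustering, and 23.9% of the noise-only UMIs were in 1 cell. No direction is read from it.

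**Figure D3:**
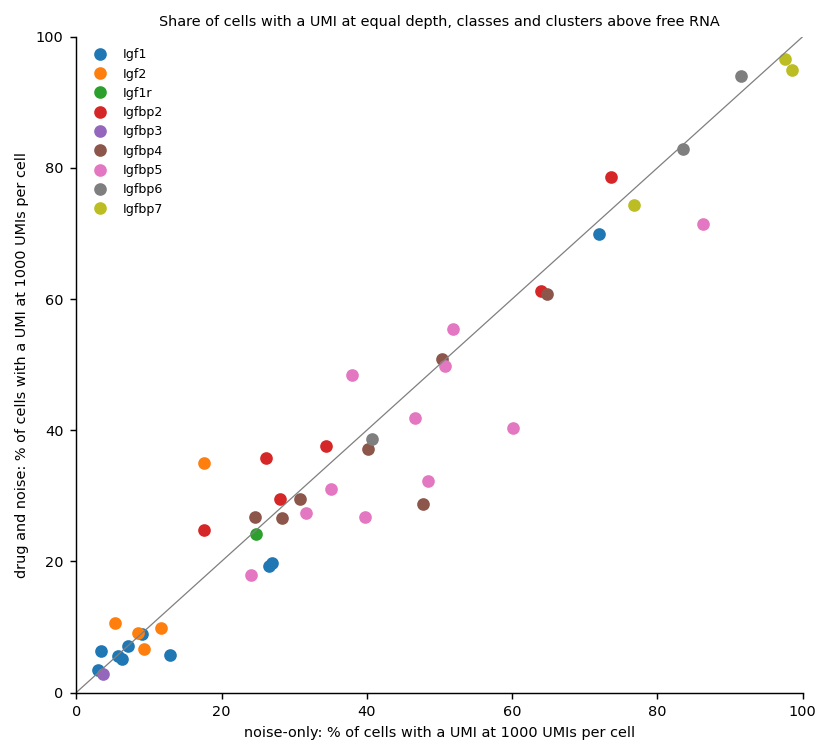
Share of cells with at least 1 UMI of a gene after thinning each cell to 1000 UMIs, noise-only library on the horizontal and drug-and-noise library on the vertical axis, both in percent. Each point is a class or unnamed cluster above background, colored by gene, and the line marks equal shares. Most points lie near the line, with Igf2 of mesothelial or meningeal cell-like cells above it (17.6% and 35.0%) and Igfbp5 of fibrocyte-like cells below it (60.2% and 40.3%). In the single fibrocyte-like clusters, which are not plotted, the Igfbp5 shares were 68.1% and 66.0% (cluster 2), 22.0% and 11.6% (cluster 9), and 68.1% and 73.2% (cluster 28).

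Igfbp6, which prefers IGF2 over IGF1, was concentrated in 3 groups of cells. Unnamed cluster 16, led by Them5, Col9a3 and Pou3f2, held 6691 CPM in the noise-only (4642 UMIs) and 7325 in the drug-and-noise library (7233 UMIs), a ratio of 1.09 (1.05 to 1.14). A UMI was seen in 91.5% and 94.1% of its cells at 1000 UMIs, and its 311 and 522 cells held 36.2% and 46.2% of all Igfbp6 UMIs. Unnamed cluster 22 held 2644 and 2605 CPM (ratio 0.985, 0.928 to 1.05). Neuron-like cells held 703 and 652 CPM (ratio 0.928, 0.885 to 0.973), and the thinned shares were 40.7% and 38.7%. In both libraries these levels kept that order. Schwann or satellite glia-like cells were under the background rule, at 140.3 and 236 CPM, with a ratio of 1.68 (1.52 to 1.86). The ratio was 1.90, 1.73, 3.40 and 1.62 in the 4 clusters of that class, and 12.5% of all its genes were higher. Erythroid-like cells held 183 and 164 CPM, so the levels of the whole glial class were near those of cells that should lack the gene. Glial cluster 11 stood higher, at 294 and 477 CPM, and its mean of 385 was over the background limit of 365. At 1000 UMIs, 19.8% and 29.0% of its cells had a UMI. The part of free RNA was not tested. Over all cells Igfbp6 was 385 and 457 CPM, a ratio of 1.19 (1.16 to 1.21), and weighting every cluster by its noise-only share gave 1.08.

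Igfbp7 marked the vessel wall. Vascular smooth muscle cell-like cells held 4476.9 and 4735 CPM (ratio 1.06, 1.01 to 1.11), pericyte-like cells 4744 and 3965 (ratio 0.836, 0.795 to 0.879) and endothelial cell-like cells 2352 and 1978 (ratio 0.841, 0.808 to 0.875). At 1000 UMIs a UMI was seen in 97.6% and 96.7%, 98.6% and 94.9%, and 76.8% and 74.3% of these cells. The order of vascular smooth muscle cell-like and pericyte-like cells differed between libraries, and both were above endothelial cell-like cells. None of the 3 ratios reached a call, and the 3 classes held 21.3%, 18.5% and 31.2% of noise-only and 25.1%, 19.7% and 28.7% of drug-and-noise Igfbp7 UMIs. Osteoblast or osteocyte-like cells held 836 and 889.8 CPM and keratinised or mucosal epithelium-like cells 603 and 853, both under the background rule. That rule is strict for Igfbp7: its limit rests on B lineage-like cells of the noise-only library, with 72 UMIs, 29.2% of them in 1 cell. Neuron-like cells held 9.08 and 21.9 CPM of Igfbp7 and Schwann or satellite glia-like cells 41.4 and 38.1. At 1000 UMIs, 41.5% and 35.6% of osteoblast or osteocyte-like cells had an Igfbp7 UMI. Igfbp7 overlaps Polr2b and Gm34648 on chromosome 5, and the counting of reads in that overlap was not described in the labels.

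The fibrocyte-like class was the class with the most lower calls: 6 of the 9 genes were lower and 1 was higher, against 20% and 16.9% of all genes there. It was made of 3 clusters in unequal shares. Cluster 2, led by Fst and Coch, had 955 and 1075 cells, cluster 9, led by Slc4a11 and Otos, had 230 and 951, and cluster 28 had 168 and 210. Igfbp5 was 3619 and 3329 CPM in cluster 2, 430.1 and 295 in cluster 9, and 3370.4 and 3611 in cluster 28. The class ratio of 0.650 thus stood beside ratios of 0.920 (0.882 to 0.959), 0.687 (0.589 to 0.802) and 1.07 (1.01 to 1.14) in its clusters, and with the noise-only cluster weights it was 0.959. The same weights moved Igf1 from 0.626 to 0.924, Igfbp4 from 0.566 to 0.820 and Igf2 from 0.778 to 1.12. Igfbp7 was 533 and 276 CPM in cluster 2, a ratio of 0.517 (0.453 to 0.589), and the weighted class ratio was 0.585, at a level under the background rule. Igfbp2 was 276 and 453 CPM in cluster 9, a ratio of 1.64 (1.38 to 1.96). Ttr stood at 2858 CPM in the noise-only and 7.66 in the drug-and-noise fibrocyte-like cells, and its part in these differences was not tested. The bar chart of the class and its clusters shows both the class differences and the larger ones between clusters.

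**Figure D4:**
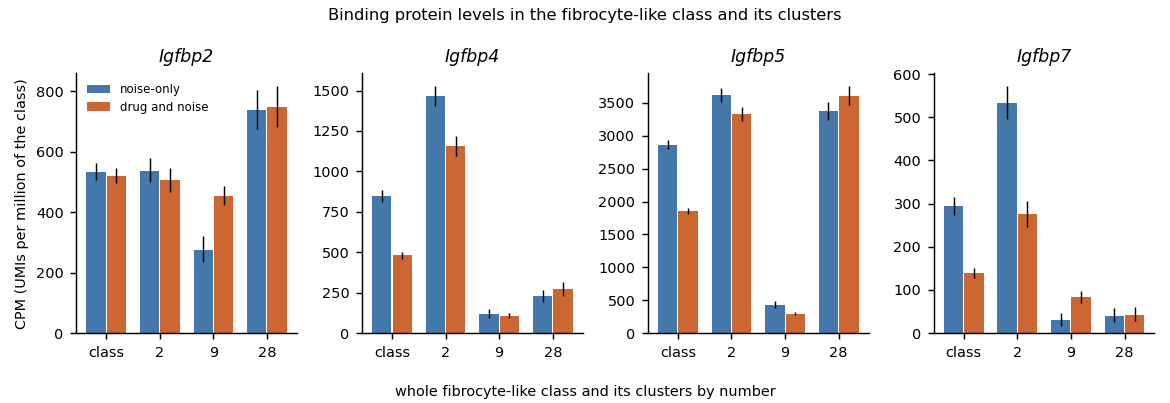
Level in CPM of 4 binding proteins in the whole fibrocyte-like class and in its clusters 2, 9 and 28, with bars from 0 for the noise-only and drug-and-noise libraries and exact 95% Poisson intervals as lines. The class difference in Igfbp5 (2865 and 1862 CPM) is larger than that in cluster 2 (3619 and 3329). Cluster 9 holds little Igfbp5 or Igfbp4, and clusters 9 and 28 both hold little Igfbp7.

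Counts per class over all measured genes of the family, without the background rule, follow, each beside the shares of all genes called in that class. Mesothelial or meningeal cell-like cells had 3 higher and 2 lower of 9, beside the 27.0% and 18.6% given above. Osteoblast or osteocyte-like cells had 3 and 3 of 9, against 17.0% and 29.7% of all genes there. Pericyte-like cells had 3 and 2 of 8 (19.1% and 21.6%), and strial basal or tympanic border cell-like cells 1 and 1 of 8 (17.2% and 20.5%). Keratinised or mucosal epithelium-like cells had 3 and 3 of 8 (28.9% and 23.3%), and hair cell-like cells 3 and 2 of 6 (20.5% and 26.8%). Endothelial cell-like cells had 2 and 2 of 9 (16.1% and 13.5%), and unnamed cluster 22 had 1 and 2 of 9 (20.3% and 20.2%). Schwann or satellite glia-like cells had 5 higher and 0 lower of 8, where 12.5% and 16.0% of all genes were called, with all levels under the background rule. Macrophage-like cells had 4 higher and 0 lower of 7 (23.6% and 23.3%), strial marginal cell-like cells 4 and 0 of 7 (22.0% and 21.9%), and neuron-like cells 3 and 0 of 7 (15.4% and 10.4%). None of these higher calls was in a pair above background. Other cochlear epithelium-like cells had 3 and 2 of 9 (15.3% and 16.7%), and vascular smooth muscle cell-like cells 2 and 0 of 8 (20.2% and 19.1%). Strial intermediate cell or melanocyte-like cells had 1 and 0 of 7 (18.6% and 17.7%), and oligodendrocyte-like cells 2 and 1 of 6 (17.0% and 29.1%). Among blood cells, T or NK cell-like cells had 3 and 3 of 7 (22.2% and 28.4%), erythroid-like cells 2 and 1 of 8 (29.2% and 20.7%), and neutrophil-like cells 3 and 1 of 6 (37.6% and 30.4%). Unnamed cluster 7 had 3 and 0 of 8 (22.5% and 14.9%), cluster 16 had 3 and 0 of 6 (18.4% and 20.4%), cluster 18 had 4 and 2 of 8 (15.8% and 19.2%), and cluster 19 had 0 and 3 of 8 (17.6% and 26.3%). Since the balance over all pairs turned with the doublet thresholds, no direction is read from these counts.

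In some classes most cells held several binding proteins, while 51.8% of noise-only and 41.9% of drug-and-noise cells overall had a UMI of none. In unnamed cluster 22, 93% of noise-only and 90.9% of drug-and-noise cells had UMIs of at least 2 of the 6, against 22.5% and 24.7% of all cells. The summed binding proteins reached 7163 and 6209 CPM there, 7252 and 8046 in unnamed cluster 16, and 7133 and 7110.1 in osteoblast or osteocyte-like cells. In the strial marginal cell-like class, where the ligands summed to 1460.3 and 1331 CPM, the binding proteins summed to 172 and 388. It was the only compared named class where the ligand sum exceeded the binding protein sum in both libraries. These shares are not thinned and rise with depth.

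Of 40 other genes of the IGF pathway, listed with earlier results of these data known, 36 had at least 20 UMIs over all cells, 4 were higher and 2 lower, where 12.0% of all genes were higher and 9.43% lower. These counts are near or under those shares. The median log2 ratio was -0.04 for them and -0.09 for the 9 genes, beside -0.03 over all genes. Stc1, an inhibitor of PAPP-A, was 2.94 and 4.20 CPM (ratio 1.43, 1.1 to 1.87), and H19, the imprinted RNA next to Igf2, was 3.12 and 3.94 (ratio 1.26, 0.970 to 1.65). The other genes called higher were sparse: Igfbpl1 had 8 and 18 UMIs and Pappa2 had 9 and 25. Akt2, a kinase of the pathway, stood at 43.7 and 50.4 CPM, a ratio of 1.15 (1.07 to 1.24) under the call. Pappa was 16.7 and 12.0 CPM (ratio 0.717, 0.629 to 0.816), mostly in neuron-like cells at 91.5 and 69.7 CPM (ratio 0.762, 0.661 to 0.877). Igf2bp3 was 8.25 and 6.39 CPM (ratio 0.774, 0.645 to 0.928), and Irs2, an adaptor of the receptors, 66.2 and 55.7 (ratio 0.841, 0.791 to 0.895), short of a call. Abundant genes of the list differed little: Ctsd, a lysosomal protease, had a ratio of 1.04, Grb14 0.939, Pik3r1 0.888 and Adamts1 1.01. The receptors Insr (35.8 and 36.8 CPM) and Igf2r (23.6 and 22.8) had ratios of 1.03 and 0.967.

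Genes with the most similar pattern over the 24 units were found by Pearson correlation of log2(CPM + 1) among 13137 genes, as a description over units that share the libraries. For Igf1 they were Vdr (r = 0.862), Slc41a2 (0.803) and Gpx3 (0.803), and for Igf2 Itih2 (0.922), Islr (0.907) and Dcn (0.904). For Igf1r they were Crip2 (0.824), Actn4 (0.777) and Btbd7 (0.774). For Igfbp2 they were Kcnk2 (0.841), Gfpt2 (0.833) and Prr16 (0.833), and for Igfbp3 Tsc22d1 (0.782), Cdh13 (0.768) and Ltbp4 (0.745). For Igfbp4 they were Twist1 (0.926), Ddr2 (0.925) and Serping1 (0.909), and for Igfbp5 Fzd2 (0.834), Scara3 (0.829) and Sertad4 (0.829). For Igfbp6 they included Vwc2 (0.785) and Kank4 (0.764), and for Igfbp7 Itga1 (0.907), Epas1 (0.880) and Cavin1 (0.856). Within the family the closest pair was Igf2 and Igfbp4 (0.781).

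**Figure D5:**
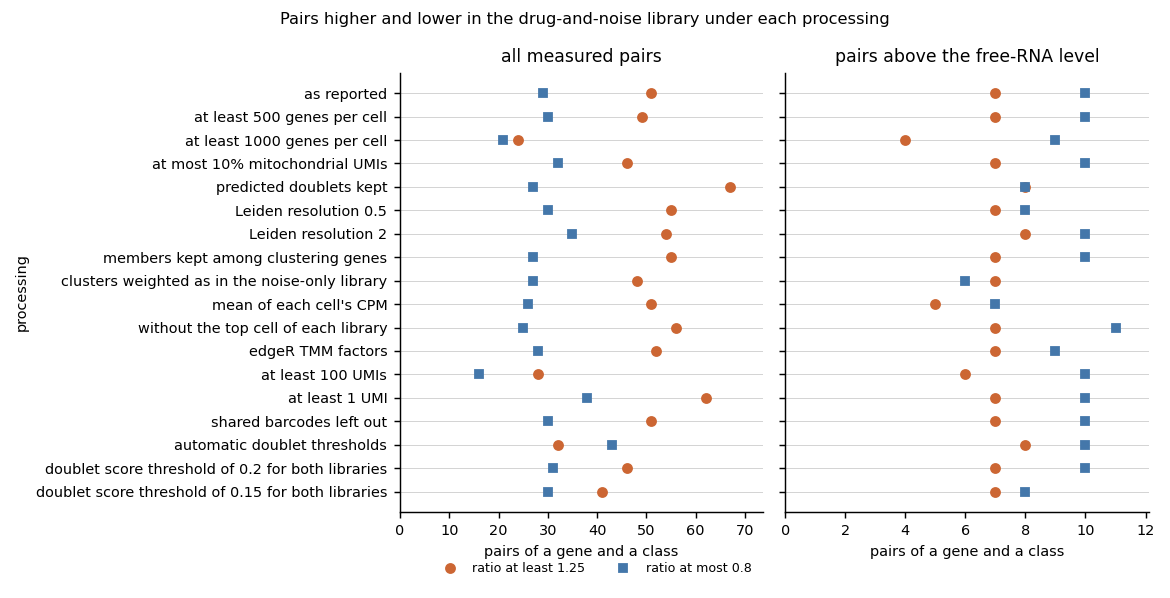
Number of pairs of a gene and a class called higher (circles) and lower (squares) in the drug-and-noise library, as reported and under 17 alternatives, for all measured pairs (left) and for the 33 pairs above background in the reported processing (right). On the left the balance turns with automatic doublet thresholds (32 higher, 43 lower); on the right it moves little with the treatment of doublets (8 higher, 10 lower).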

How the data were processed

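Gene counts were analysed in 2 droplet libraries, 1 per group. Values were deposited by the authors as raw UMI counts without normalization, per the file headers, which name Cell Ranger 5.0.1. Per the submitters' processing notes, the tools were Cell Ranger 5.0, STAR and Seurat 3.2.2, with builds GRCm38 and mm10 and no roles. The annotation release was not given in the sources used here.

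Barcodes with at least 300 genes, 500 UMIs and at most 20% mitochondrial UMIs were kept (17423 noise-only, 20133 drug-and-noise). Scrublet (scanpy 1.11.5, expected rate 0.08) scored doublets. Its automatic threshold was 0.264, 0.673 and 0.230 in the noise-only library under 3 seeds, and 0.164, 0.178 and 0.158 in the other. Doublets were therefore called at a score of 0.25 in both libraries (957, 5.49%, and 1148, 5.70%). This change was made after values of these genes under automatic thresholds had been seen.

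Both libraries were clustered together without integration, on 3000 variable genes that excluded the family and its pathway, with 30 components, 15 neighbours and Leiden resolution 1. A class needed at least 4 markers at 2 times the level of other cells and in at least 10% of its cells, at least 1 of them among its 10 leading genes and no other type with more there. The minimum was raised from 3 after a cluster led by Vmo1 had been named on only that number, a name its leading genes went against. Of the clusters, 7 stayed unnamed.

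UMIs were summed per class and library. Levels have exact Poisson and ratios exact conditional binomial 95% intervals; log2 ratios add 0.5 to every sum. Ratios needed 20 UMIs in both libraries together. A sum of 0 allows up to 3 UMIs. Scripts were tested on simulated data. edgeR 4.0.16 gave TMM factors alone. The 9 genes, the pathway list and the rules were chosen with earlier results of these data known. All 9 genes were named in every class described. Other pathway genes were named by ratio (up to 3 per direction, the larger sum being 50 UMIs or more) or as the 5 most abundant, and the 3 most similar genes per member were taken; some genes these rules named are not reported here. Genes in counts of 5 or fewer, Insr, Igf2r and Igf2os were named after their values were seen.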

Additional observations from a re-analysis of the deposited data

Results flagged for a closer look

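Igfbp5 differed between the libraries in opposite directions in different classes. Each was above background by the mean of both libraries, with at least 100 UMIs and a counting interval that left out 1. The drug-and-noise to noise-only ratio was 1.54 in strial basal or tympanic border cell-like cells, a class named on the minimum of 4 markers. It was 0.650 in fibrocyte-like, 0.639 in osteoblast or osteocyte-like, 0.509 in mesothelial or meningeal cell-like and 0.499 in pericyte-like cells. In pericyte-like cells the drug-and-noise level of 435 CPM was under the background limit of 463.5, so that pair passed through the noise-only library alone. With noise-only cluster weights the fibrocyte-like ratio was 0.959, which ends that call, and the osteoblast or osteocyte-like ratio ranged from 0.460 to 0.815 over the alternatives, past the call limit with the mean of single-cell levels. The difference between classes was not tested, since each group is 1 library.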

How the results depend on the processing

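No paired analysis was possible because each group is 1 pooled library. The counts of 51 higher, 29 lower and 9 genes with their highest class unchanged stayed within 1.5 times of these in most alternatives. The exceptions were 24 higher with at least 1000 genes per cell, 28 higher and 16 lower at a minimum of 100 UMIs, where fewer pairs were counted, 32 higher with automatic doublet thresholds (chosen after seeing the data, as were common thresholds of 0.2 and 0.15), and 5 genes with an unchanged highest class at resolution 2, where a fibroblast-like class appeared. That class became the highest for Igfbp2, Igfbp3, Igfbp4 and Igfbp5. Of 1488 ratios of the 90 pairs with at least 100 UMIs under 17 alternatives, 1379 stayed within the counting interval of the reported ratio, 99 moved out of it and 10 turned direction. Igfbp5 in endothelial cell-like cells turned to 1.17 with doublets kept, 1.24 at resolution 2 and 1.27 with the family kept among clustering genes. Igf2 in fibrocyte-like cells turned to 1.12 with noise-only cluster weights. With automatic thresholds, Igfbp6 turned to 0.880 in keratinised or mucosal epithelium-like and 0.713 in macrophage-like cells, Igfbp5 to 0.903 in oligodendrocyte-like cells and Igfbp7 to 0.9505 in other cochlear epithelium-like cells. Igfbp6 in keratinised or mucosal epithelium-like cells was also 0.931 and 0.838 at common thresholds of 0.2 and 0.15. The causes were not tested. Few UMIs limit Igfbp3 and Igf1 outside their leading classes.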
